A study of Danio rerio with 24 samples.

Results

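The parvalbumin genes of the zebrafish were followed across muscle libraries of untrained, trained and transgenic fish. Members were all genes whose name in the authors' deposited tables starts with pvalb and a digit, which gave 9 of the 31953 genes counted. They are pvalb1 to pvalb9, each with 1 Ensembl gene ID. Skeletal muscle of adult Danio rerio, 4 months old per the labels, gave polyadenylated RNA that was sequenced as stranded libraries. Wild-type fish were either left untrained (untrained_WT) or trained by chronic exercise (trained_WT), and a further group was untrained and carried a transgene labelled actc1b:PGC1alpha (untrained_TG). Of 24 labelled samples, 8 per group, 21 had a column in the count table and were analysed, 7 per group. The actc1b promoter drives expression in muscle, and the labels do not name the species of the PGC1alpha sequence, the line or clone, or whether a sample was 1 fish or a pool. P-values therefore measure the spread between these samples, which may be partly technical.

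Parvalbumins are small cytosolic proteins of the EF-hand family that bind calcium. In fast muscle fibres they take up calcium after it has left troponin and so speed relaxation, before the pumps of the sarcoplasmic reticulum return it to the store. Fish white muscle is known for very high parvalbumin content, and slow fibres for little of it. In zebrafish, pvalb7 is also known as a marker of Purkinje cells of the cerebellum, and pvalb8 and pvalb9 are known from sensory hair cells and are also named after oncomodulin. In the RefSeq annotation of build GRCz12tu, used here for gene order alone, pvalb8, pvalb4, pvalb1 and pvalb5 are consecutive protein-coding genes. The genes pvalb9, pvalb3 and pvalb2 are consecutive at another place, and pvalb6 and pvalb7 have no parvalbumin gene beside them.

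Libraries held 42.8 to 79.2 M counts over genes, with the lowest total in untrained_TG replicate 7. Levels are CPM, counts per M counts of library sizes scaled by edgeR's trimmed mean of M-values (TMM). The scaling factors ran from 0.722 in untrained_TG replicate 5 to 2.01 in untrained_WT replicate 7, so a CPM value of that wild-type library is low for its share of counts. Mitochondrially encoded genes took 42.8 to 49.4% of counts in untrained_TG and 8.17 to 14.8% in wild-type libraries. Reads with more than 1 alignment, which stayed uncounted, made up 5.65 to 10.8% of reads, and no source used here gives the strand setting of the counting. That share is for whole libraries, and the part of it from these close paralogs was not measured. Their counts are thus uncertain by an unknown amount. Zebrafish ppargc1a was at 28.1 ± 16.3 CPM in untrained_WT and 16.8 ± 8.16 in untrained_TG (SD, n = 7 each; log2 fold change -0.74 ± 0.43 SE, edgeR adjusted p = 0.168), which does not check the genotype, since the transgene's reads may not fall on that gene. The gene of the promoter, actc1b, fell from 24683 ± 10505 to 3193 ± 577 CPM (log2 fold change -2.95 ± 0.27, edgeR adjusted p = 1.13e-08).

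Setting untrained_TG against untrained_WT asks what the transgene does to muscle without training. Transcripts of pvalb1, pvalb2 and pvalb3 fell by roughly 9 log2 units, to means of 3.68, 7.98 and 14.2 CPM, and pvalb4 fell by a smaller amount and kept 1391 CPM on average. The gene pvalb6 was lower at a low level, and pvalb7 was higher with the scaling used. Of 8 members tested, 5 were lower and 1 was higher at an adjusted p under 0.05, where 43.4% of all 18947 genes tested were called, 25.1% lower and 18.3% higher. The 8 members had a median log2 fold change of -2.81, and the median over all genes was -0.13. The ninth member, pvalb5, had too few counts for the filter. In bulk muscle, fewer fibres of a type and less RNA per fibre cannot be told apart.

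All parvalbumin counts together took 4.01% ± 0.579 of the counts over genes in untrained_WT (SD, n = 7), 3.87% ± 0.33 in trained_WT and 0.18% ± 0.0608 in untrained_TG. The wild-type libraries ran from 3.29 to 4.9% and the transgenic ones from 0.0827 to 0.279%. Every transgenic library was thus below every wild-type library, while the 2 wild-type groups overlapped. Part of that gap is set by the denominator: without mitochondrially encoded genes the shares were 4.48% ± 0.692, 4.36% ± 0.354 and 0.339% ± 0.109, and the transgenic libraries, at most 0.488%, were still below all wild-type ones, at least 3.73%.

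**Figure D1:**
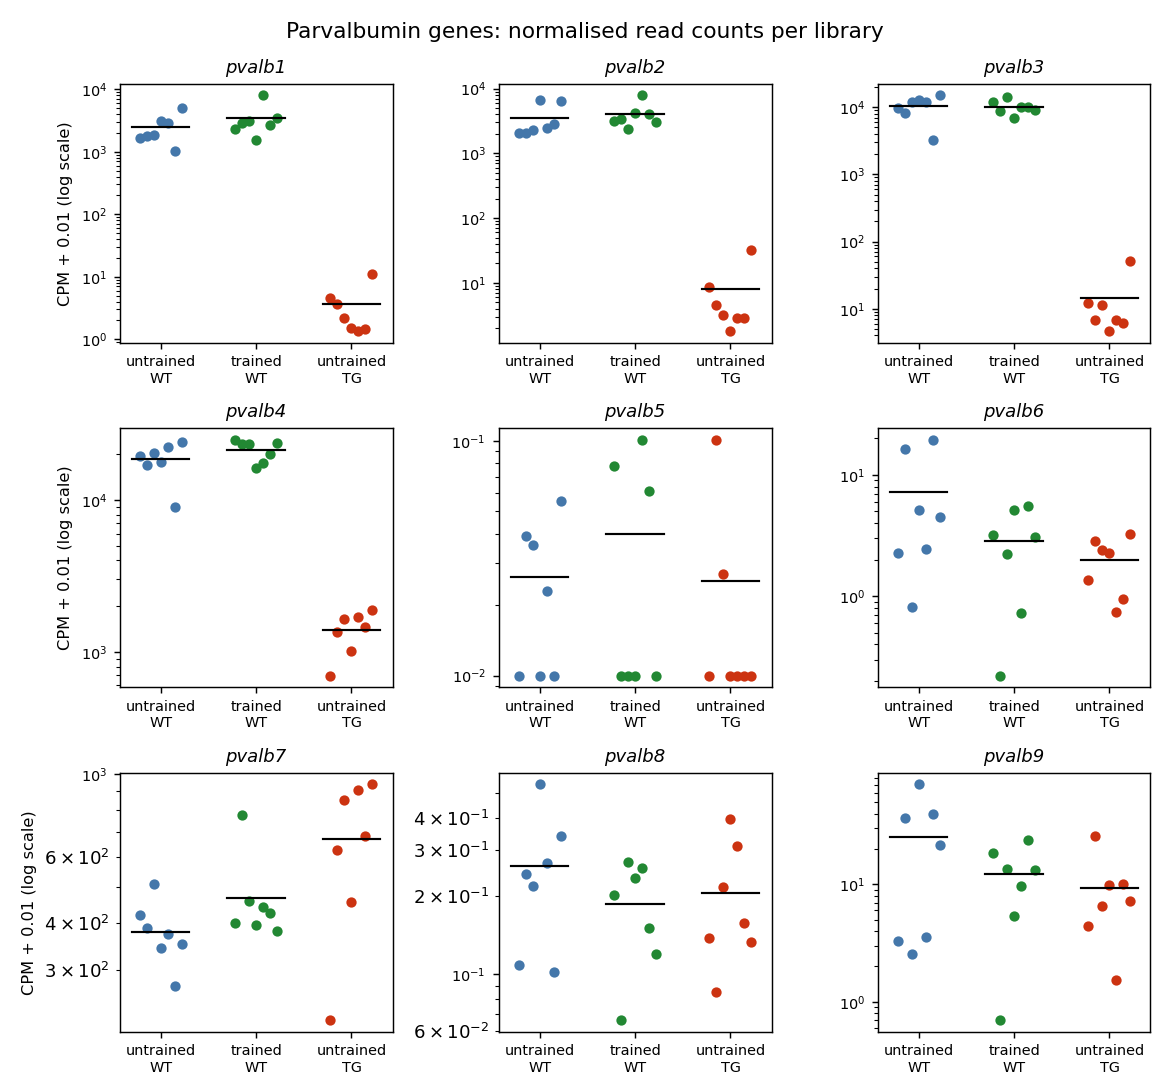
Normalised read counts (CPM + 0.01, log scale, a different range in each panel) of the 9 parvalbumin genes in 7 libraries of each group. Points are libraries in order of replicate number and black lines are group means. The transgenic points of pvalb1 to pvalb4 lie below all wild-type points, and those of the other 5 genes overlap with them. The share of all genes that separate the groups in this way was not counted.

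The gene pvalb4 (ENSDARG00000024433) had the most reads of the family in every library. Its level in untrained_WT ran from 8937 CPM in replicate 7 through a median of 19431 to 23895 in replicate 8. In trained_WT the lowest was 16217, the median 23329 and the highest 24839 CPM. In untrained_TG the lowest was 698 in replicate 1, the median 1458 and the highest 1879 in replicate 7. No transgenic library reached any wild-type one. The mean fell from 18545 ± 4883 to 1391 ± 413 CPM, 13.3-fold, a log2 fold change of -3.74 ± 0.24 (SE, edgeR adjusted p = 1.06e-10, lower in 7 of 7 libraries). As a share of counts over genes, pvalb4 took 2.11% ± 0.17 in untrained_WT and 0.119% ± 0.0368 in untrained_TG. Untrained_TG replicate 1, the lowest in pvalb4, was also the lowest of its group in summed fast fibre contractile genes, at 3274 CPM against 5304 to 13765 in the other 6. In pvalb1, pvalb2 and pvalb3, however, the same library was next to the highest of its group, at 4.63, 8.55 and 12.3 CPM.

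The gene pvalb3 (ENSDARG00000022817) ran from 3273 CPM through a median of 11832 to 14979 in untrained_WT. Its trained_WT libraries lay between 6838 and 14329 with a median of 10069. In untrained_TG it lay between 4.66 and 12.3 CPM in 6 libraries and was 51.6 in replicate 7. Between untrained_WT and untrained_TG it fell 734-fold, with a log2 fold change of -9.52 ± 0.62 (edgeR adjusted p = 1.18e-10). The 313 to 2110 counts that remained per transgenic library were far above the floor of 3 counts, so reads were still assigned to the gene in all 7. That floor covers counting error only, and whether all these reads came from the muscle of these fish was not tested. The size of the fall depends on them, and the same limit holds for the low counts of pvalb1 and pvalb2.

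The gene pvalb1 (ENSDARG00000037789), the neighbour of pvalb4, ran from 1036 through a median of 1871 to 4979 CPM in untrained_WT. Its transgenic libraries had 1.35 to 4.63 CPM in 6 cases and 10.9 in replicate 7. The lowest wild-type library was thus far above the highest transgenic one. The log2 fold change was -9.40 ± 0.64 (edgeR adjusted p = 2.19e-10), a 678-fold fall. The gene pvalb2 (ENSDARG00000002768), the neighbour of pvalb3, ran from 2082 through 2505 to 6701 CPM in untrained_WT. Its transgenic libraries had 1.80 to 8.55 CPM in 6 cases and 31.9 in replicate 7. The log2 fold change was -8.81 ± 0.73 (edgeR adjusted p = 3.39e-09), a 448-fold fall.

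Untrained_TG replicate 7 thus held the most of all 3 low genes in its group. The same library held 212 CPM of the fast myosin heavy chain gene myhc4, while the remaining transgenic libraries had 17.9 to 31.7, and 27 CPM of the fast myosin-binding protein gene mybpc2b, against 2.35 to 14.3. It also had the fewest counts. Without it the log2 fold changes were larger, -9.97 ± 0.59 for pvalb1, -9.80 ± 0.56 for pvalb2 and -10.35 ± 0.44 for pvalb3, with edgeR adjusted p of at most 6.37e-11. Leaving it out therefore moved pvalb2 and pvalb3 by more than 1.5 times in fold, and made no call weaker.

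The likeness of other genes to the most-counted members was measured as the root-mean-square distance of log2(CPM + 0.5) profiles, each centred on its own mean over the 21 libraries. Parvalbumin genes were left out of this ranking, so another member may lie nearer than the genes named. Outside the family, the nearest genes to pvalb3 were mybpc2b (0.59), myhc4 (0.60) and tnni2a.3 (1.13), which encodes a fast troponin I. The median distance over all genes was 4.70, against 0.63 when only wild-type libraries were used. Over all 21 libraries the distance thus mostly reflects the gap between wild-type and transgenic libraries. A fold change like that of the member therefore follows from the ranking. The same 3 genes were nearest to pvalb2, at 0.69, 1.03 and 1.08. Their log2 fold changes in untrained_TG were -8.50 ± 0.55, -10.25 ± 0.76 and -7.86 ± 0.46. The nearest to pvalb4 were si:ch73-367p23.2 (0.30), slc25a4 (0.31), which encodes an ADP/ATP carrier of mitochondria, and entpd5b (0.32), with a median over all genes of 1.90. These had log2 fold changes of -4.25 ± 0.26, -3.61 ± 0.31 and -3.63 ± 0.22. No fast myosin or troponin was among the 3 genes nearest to pvalb4. Yet the fast myosin light chain gene mylpfa had a log2 fold change near that of pvalb4, at -3.52 ± 0.37.

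The gene pvalb7 (ENSDARG00000034705) ran from 272 through a median of 374 to 509 CPM in untrained_WT and from 381 through 426 to 777 in trained_WT. In untrained_TG it ran from 221 in replicate 1 through 682 to 937 in replicate 7. The transgenic libraries reached both below and above all untrained wild-type ones, and 6 of 7 were above the untrained_WT median. The mean was 380 ± 73.3 CPM in untrained_WT and 669 ± 261 in untrained_TG, a log2 fold change of 0.82 ± 0.24 (edgeR adjusted p = 0.00946). The call held in 21 of 23 alternatives. Among these were RLE, another scaling (0.85 ± 0.24, edgeR adjusted p = 0.00716), and DESeq2 (0.85 ± 0.25, DESeq2 adjusted p = 0.00273). It was lost in the 2 that follow. With library totals alone the change was 0.35 ± 0.23 (edgeR adjusted p = 0.214), under a scaling in which the median over all genes went from -0.13 to -0.64; in plain counts pvalb7 took 0.0448% ± 0.00847 of a library in untrained_WT and 0.0572% ± 0.0222 in untrained_TG. Without untrained_WT replicates 3, 5 and 7, an alternative added after seeing the data, the change was 0.70 ± 0.30 (edgeR adjusted p = 0.0667). Purkinje cell markers had 0 of 4 higher and 1 lower by edgeR and by DESeq2 (pcp4a, -1.72 ± 0.40), with 1 at an unadjusted p under 0.05, and their summed level was 1.59 to 3.81 CPM in untrained_WT and 1.67 to 2.94 in untrained_TG. None of them was at 0 over a whole group. Of all genes tested in this comparison edgeR called 18.3% higher and 25.1% lower.

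The genes pvalb6 (ENSDARG00000009311) and pvalb9 (ENSDARG00000071601) were low and uneven. In untrained_WT pvalb6 had 16.3 CPM in replicate 3 and 19.4 in replicate 7, and 0.804 to 5.16 in the other 5. Trained_WT libraries had 0.212 to 5.49 CPM with a median of 3.04, and transgenic ones 0.727 to 3.23 with a median of 2.26. All groups overlapped. The log2 fold change in untrained_TG was -1.89 ± 0.65 (edgeR adjusted p = 0.022), and without untrained_WT replicates 3 and 7 it was -0.61 ± 0.57 (edgeR adjusted p = 0.429), where the libraries left out were the highest ones. Without replicate 3 alone it was -1.61 ± 0.66 (edgeR adjusted p = 0.0554), and without replicate 7 alone -1.40 ± 0.63 (edgeR adjusted p = 0.0769).

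For pvalb9 the highest untrained_WT libraries were replicates 5, 7, 3 and 8, at 70.7, 39.3, 36.3 and 21.4 CPM, and the other 3 had 2.53 to 3.56. Its trained_WT libraries ran from 0.691 through 13.3 to 23.9 CPM, and its transgenic ones from 1.53 through 7.23 to 25.9. The log2 fold change in untrained_TG was -1.43 ± 0.72 (edgeR adjusted p = 0.115, 95% interval -2.94 to 0.07). With library totals only it was -2.04 ± 0.79 (edgeR adjusted p = 0.0354). Without untrained_TG replicate 2, the highest of its group, it was -1.91 ± 0.75 (edgeR adjusted p = 0.0437), and without untrained_WT replicates 3, 5 and 7 it turned to 0.28 ± 0.74 (edgeR adjusted p = 0.797).

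Germ cell and red blood cell markers were also high in some of these libraries. The 4 germ cell markers (ddx4, dazl, piwil1 and zp3b) summed to 54.9 CPM in untrained_WT replicate 3 and 31.4 in replicate 7, against 0.734 to 5.40 in the other 5 of that group, 0.212 to 9.18 in trained_WT and 0.172 to 1.60 in untrained_TG. Replicate 5, the highest in pvalb9, was at 1.05 in germ cell markers and stood apart in red blood cell markers, which summed to 1883 CPM there and to 271 to 455 in the other 6 of its group. Germ cell markers had 3 of 4 lower in untrained_TG (ddx4 by -5.62 ± 1.46, piwil1 by -5.69 ± 1.57 and dazl by -4.86 ± 1.42 log2 units, with edgeR adjusted p of at most 0.00816). Hair cell markers summed to 2.23 to 8.80 CPM in untrained_WT, 2.98 to 7.12 in trained_WT and 4.94 to 28.4 in untrained_TG, with 2 of 5 tested higher in untrained_TG (tmc1 by 1.78 ± 0.40 and tmc2b by 3.07 ± 0.81). Of all genes tested in this comparison edgeR called 43.4%, 25.1% lower and 18.3% higher, and both marker lists are short. The highest sums were in untrained_TG replicates 5, 4 and 1, at 28.4, 27.8 and 15.2 CPM, and otofa (-0.73 ± 0.53) and myo7aa (-0.82 ± 0.60) had lower values that did not pass. Untrained_TG replicate 2 and untrained_WT replicate 5, the highest of their groups in pvalb9, had hair cell sums of 5.64 and 2.23 CPM. Untrained_WT replicate 3, with 36.3 CPM of pvalb9, had the highest hair cell sum of its group, 8.80. The hair cell factors pou4f3 and atoh1a were at 0 in all trained and transgenic libraries and averaged only 0.0202 and 0.0142 CPM in untrained_WT. The part of these cells in the values of pvalb6 and pvalb9 was not tested.

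**Figure D2:**
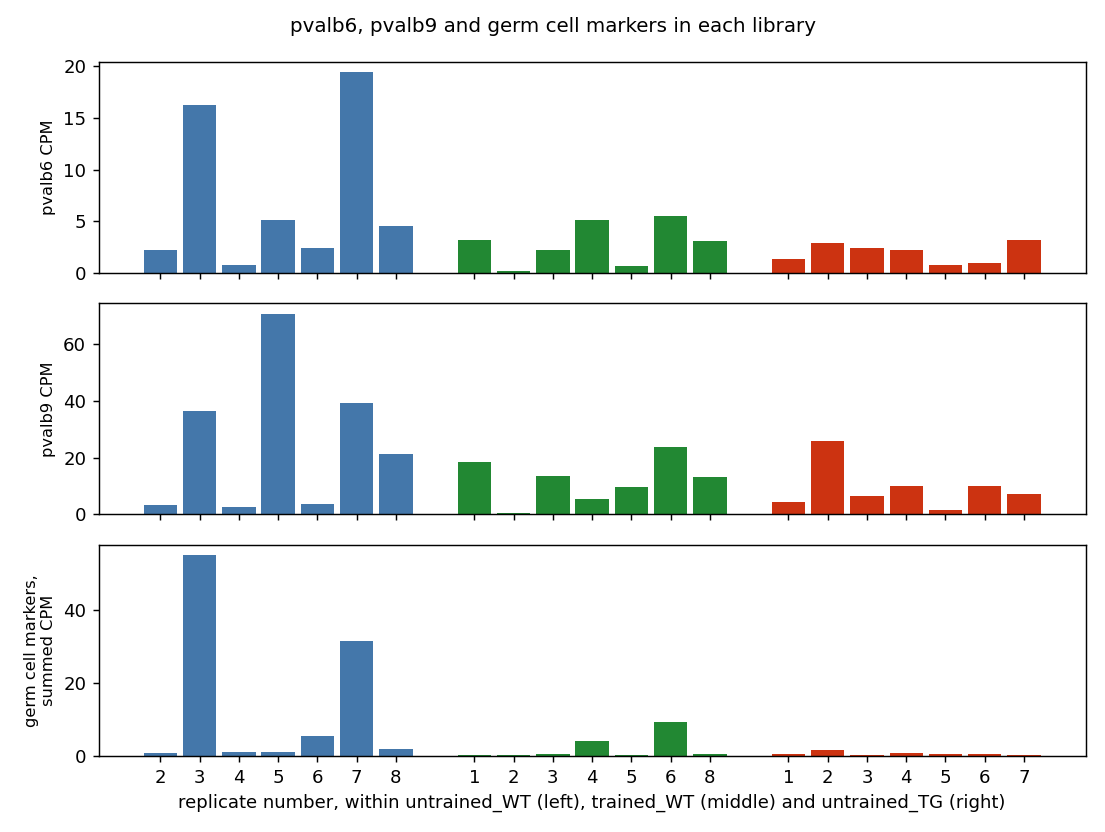
CPM of pvalb6 and pvalb9 and summed CPM of 4 germ cell markers in each library, from 0, in blue for untrained_WT, green for trained_WT and red for untrained_TG. Untrained_WT replicates 3 and 7 stand out in pvalb6 (16.3 and 19.4 CPM) and in germ cell markers (54.9 and 31.4), and replicate 5 in pvalb9 (70.7).

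The gene pvalb8 (ENSDARG00000037790) had 4 to 47 counts per library. It was at 0.25 ± 0.15 CPM in untrained_WT, 0.176 ± 0.0758 in trained_WT and 0.195 ± 0.112 in untrained_TG, and all groups overlapped. Its log2 fold change in untrained_TG was -0.34 ± 0.46 (edgeR adjusted p = 0.575, 95% interval -1.31 to 0.62). The gene pvalb5 (ENSDARG00000032836) had 0 counts in 3, 4 and 5 of 7 libraries of untrained_WT, trained_WT and untrained_TG, and 9, 16 and 7 counts over each group, so it was not tested. A count of 0 allows up to 0.0211 to 0.0733 CPM in these libraries (3 counts, counting error only). The gene is thus listed with its counts and no comparison, while its neighbour pvalb1 had 2478 ± 1318 CPM in untrained_WT.

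Because the genes fell unequally, the makeup of the remaining parvalbumin reads changed. Shares here are shares of read counts, which also depend on transcript length. In untrained_WT pvalb4 made up 53.1% ± 5.49, pvalb3 28.6% ± 4.02, pvalb2 10.3% ± 5.03, pvalb1 6.73% ± 1.71 and pvalb7 1.15% ± 0.34 of the family's counts (SD, n = 7). In untrained_TG pvalb4 made up 67.1% ± 3.1 and pvalb7 31% ± 3.71, while pvalb1, pvalb2 and pvalb3 each averaged 0.193, 0.387 and 0.672%. The share of pvalb7 ran from 23.2 to 34.7% in transgenic libraries and from 0.694 to 1.97% in wild-type ones, with no overlap. That gap is set mainly by the denominator, the family's fallen counts. The counts of pvalb7 itself averaged 33592 per library in untrained_WT and 37881 in untrained_TG. The share of pvalb4 was at least 64.3% in transgenic and at most 59.7% in wild-type libraries. The neighbours pvalb9, pvalb3 and pvalb2 together went from 39% ± 4.53 to 1.55% ± 1.01 of the family, and pvalb1, pvalb4, pvalb5 and pvalb8 together from 59.8% ± 4.32 to 67.4% ± 3.2, almost all of it pvalb4.

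**Figure D3:**
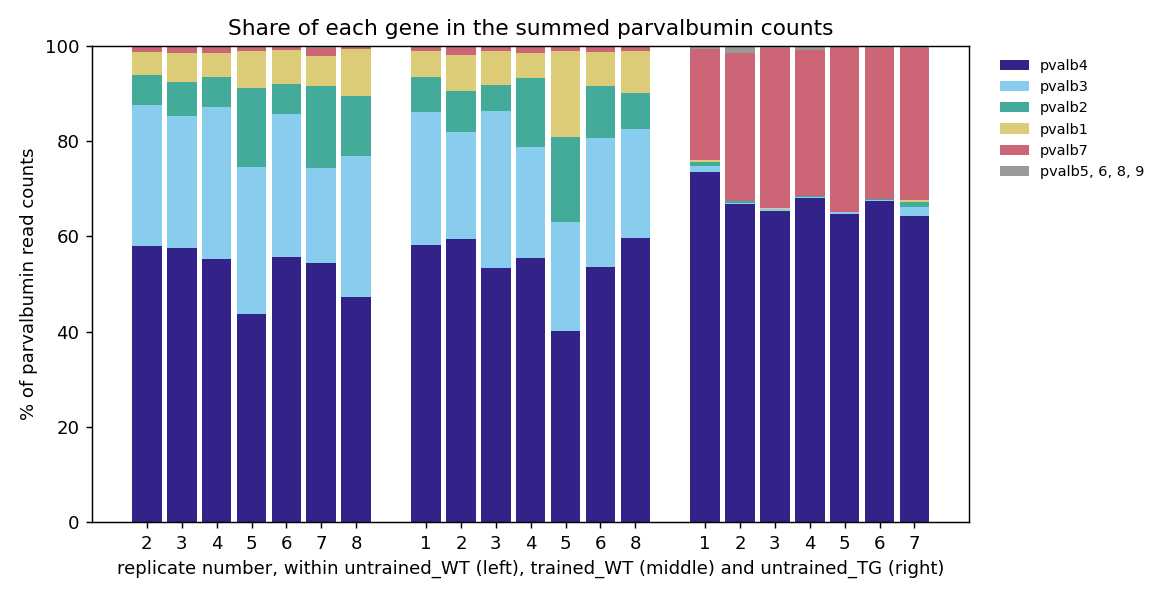
Share of each gene in the summed parvalbumin read counts (%, stacked from 0 to 100) of each library, numbered by replicate within its group. In wild-type libraries pvalb4, pvalb3, pvalb2 and pvalb1 fill the bars, and in transgenic libraries pvalb4 (64.3 to 73.4%) and pvalb7 (23.2 to 34.7%) do.

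Ratios within a library do not depend on its scaling. The ratio of pvalb4 to pvalb3 counts was 1.41 to 2.73 in untrained_WT, 1.63 to 2.64 in trained_WT and 36.4 to 252 in untrained_TG. The ratio of pvalb4 to pvalb7 was 32.9 to 68 in untrained_WT, 30.2 to 62.2 in trained_WT and 1.87 to 3.16 in untrained_TG. For neither ratio did a transgenic library overlap with a wild-type one. By contrast, the ratio of pvalb3 to pvalb1, which lie in different gene groups, was 3.01 to 6.33 in untrained_WT, 1.26 to 5.12 in trained_WT and 1.87 to 5.15 in untrained_TG, and the groups overlapped. These ratios are a description and were not tested.

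**Figure D4:**
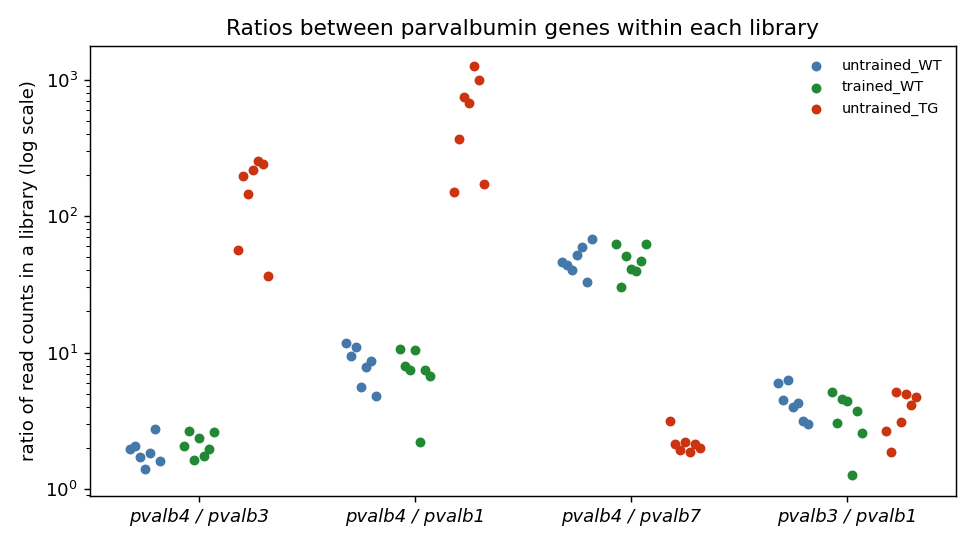
Ratios of read counts between pairs of parvalbumin genes within each library (log scale), 7 libraries per group. The ratio of pvalb4 to pvalb3 rises from at most 2.73 in wild-type to at least 36.4 in transgenic libraries and that of pvalb4 to pvalb7 falls from at least 30.2 to at most 3.16, while that of pvalb3 to pvalb1 overlaps between groups.

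What chronic exercise changes in wild-type muscle was asked by setting trained_WT against untrained_WT. By edgeR 0 of 8 members passed, 1 having an unadjusted p under 0.05 (pvalb6), and DESeq2 also called 0. The p of pvalb6, 0.0451 (edgeR, unadjusted), ranked 3538 among the 18947 genes tested. Of all genes tested edgeR called 2.95%, 2.25% higher and 0.702% lower. In trained_WT pvalb1 ran from 1551 through a median of 2919 to 7980 CPM and pvalb2 from 2380 through 3438 to 7837, and both overlapped with untrained_WT. The abundant members had log2 fold changes of 0.48 ± 0.45 for pvalb1 (95% interval -0.45 to 1.40), 0.17 ± 0.52 for pvalb2 (-0.90 to 1.24), -0.03 ± 0.43 for pvalb3 (-0.93 to 0.86) and 0.20 ± 0.22 for pvalb4 (-0.25 to 0.65). None of these passed (edgeR adjusted p of at least 0.598), and the interval was narrowest for pvalb4. The gene pvalb7 was at 468 ± 139 CPM against 380 ± 73.3 (0.30 ± 0.24, edgeR adjusted p = 0.525), and all 7 trained libraries were above the untrained median. For pvalb6, pvalb8 and pvalb9 the changes were -1.35 ± 0.63, -0.50 ± 0.46 and -1.06 ± 0.72 (edgeR adjusted p = 0.241, 0.591 and 0.438). The sign of pvalb6 and pvalb9 turned without untrained_WT replicates 3, 5 and 7, to 0.18 ± 0.62 and 0.65 ± 0.75 (edgeR adjusted p = 0.926 and 0.731). These libraries were chosen as the highest in these genes, so a smaller fall without them follows from the choice.

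Wild-type libraries differed among themselves more in some members than in others. Within untrained_WT the coefficient of variation of the share of counts over genes was 8.07% for pvalb4 and 55% for pvalb2, and within trained_WT it was 12.3% and 46.6%. Trained_WT replicate 5 held 7980 CPM of pvalb1 and 7837 of pvalb2, where the other trained libraries had at most 3508 and 4218. Untrained_WT replicates 5 and 8 held 6701 and 6384 CPM of pvalb2 against 2082 to 2823 in the other 5. By share of counts over genes replicate 7, whose CPM values are low for its share, was also high in pvalb2. It had 0.566%, where replicates 5 and 8 had 0.809 and 0.578% and replicates 2, 3, 4 and 6 had 0.216 to 0.281%. In trained_WT replicate 5 and untrained_WT replicates 5 and 8 pvalb4 made up 40, 43.7 and 47.2% of the family, the lowest shares among the 14 wild-type libraries. In untrained_WT replicate 7 it made up 54.5%. Over the 14 wild-type libraries the genes nearest to pvalb3 were mylpfa (0.14), a fast myosin light chain gene, capzb (0.18), an actin capping protein gene, and casq1a (0.20), which encodes a calcium-binding protein of the sarcoplasmic reticulum. Those nearest to pvalb4 were rtn4a, akt2l and esd (0.13 to 0.15), and those nearest to pvalb2 were dip2a, paqr6 and pkib (0.31 to 0.33). Parvalbumin genes were left out here too. The distances to pvalb2 were thus larger than those to pvalb3 and pvalb4. The measure is not scaled by spread, and the median over all genes was also larger for pvalb2 (0.71) than for pvalb3 (0.63) and pvalb4 (0.50). The genes nearest to pvalb2 had low levels, with wild-type group means of 1.42 to 3.96 CPM.

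The comparison of untrained_TG with trained_WT sets the transgene against training. It shares its transgenic libraries with the first comparison, so its values are given only side by side. Of 8 members 4 were lower and 0 higher by edgeR, where 41.6% of all genes tested were called, 22.5% lower and 19.2% higher. The log2 fold changes were -9.88 ± 0.65 for pvalb1, -8.98 ± 0.73 for pvalb2, -9.49 ± 0.62 for pvalb3 and -3.94 ± 0.25 for pvalb4, with edgeR adjusted p of at most 3.12e-09. In this comparison 5 members had an unadjusted p under 0.05, the fifth being pvalb7 at 0.51 ± 0.24 (edgeR adjusted p = 0.0949), and DESeq2 called 0 higher. The p of pvalb7 here, 0.0454 (edgeR, unadjusted), ranked 9062 among the 18947 genes tested. The call of pvalb7 changed without trained_WT replicate 2 (0.68 ± 0.24, edgeR adjusted p = 0.0268), which held 777 CPM against 381 to 458 in the other trained libraries, and without untrained_TG replicate 1 (0.69 ± 0.19, edgeR adjusted p = 0.00648). For pvalb6, pvalb8 and pvalb9 the values were -0.54 ± 0.63, 0.16 ± 0.47 and -0.38 ± 0.71 (edgeR adjusted p of at least 0.524).

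**Figure D5:**
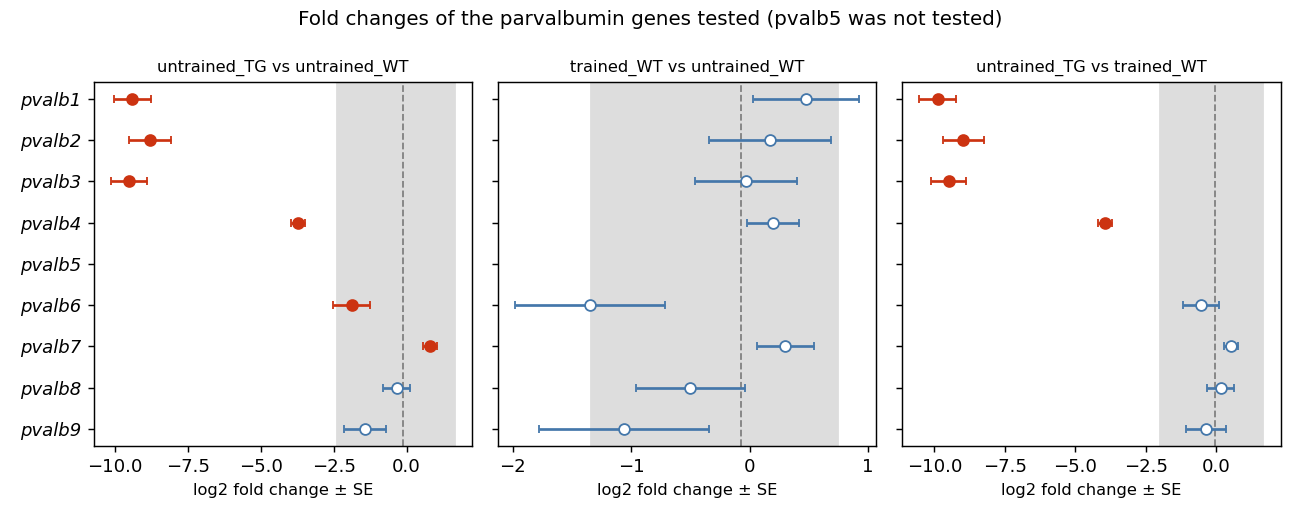
Log2 fold changes (± SE) of the 8 parvalbumin genes tested in the 3 comparisons, each with its own axis. Filled red points passed an adjusted p under 0.05 and open blue points did not. The grey band spans the 5th to 95th percentile of all 18947 genes and the dashed line is their median. In both comparisons with transgenic muscle pvalb1 to pvalb4 lie outside the band, at -3.74 and lower.

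Other calcium genes give the setting of the family in untrained_TG against untrained_WT. The counts below stand against the 43.4% of all genes called in this comparison, and for EF-hand buffers, mitochondrial uptake and plasma membrane transport the share called was near or below it. Of 16 other EF-hand buffers and sensors tested, 2 were higher and 5 lower, with a median of -0.71. Among the lowest p-values were s100v2 (-1.29 ± 0.19) and the calmodulin gene calm2a (-0.95 ± 0.17), and the symbol calm3a stands for 2 gene IDs that moved apart, by -1.47 ± 0.23 and 0.80 ± 0.17. Of 22 genes of the calcium store, its release and its uptake, 8 were higher and 12 lower, with a median of -0.95. The calcium release channel genes ryr1b and ryr3 fell by 3.67 ± 0.23 and 4.42 ± 0.31 log2 units, and asph, whose mammalian locus also encodes the store protein junctin, rose by 2.59 ± 0.17 (edgeR adjusted p of at most 2.59e-10 for these 3).

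Calcium pumps and exchangers of the plasma membrane had 2 of 10 higher and 1 lower, with a median of -0.06. The pump genes atp2b2 (2.01 ± 0.22) and atp2b1a (0.77 ± 0.16) rose and the sodium-calcium exchanger gene slc8a3 (-3.97 ± 0.56) fell. Genes of mitochondrial calcium uptake had 2 of 9 higher and 2 lower, with a median of 0.07. Among them smdt1a, which encodes a small subunit of the uniporter, changed by -2.22 ± 0.24 and the pore gene mcu by -1.43 ± 0.34, while micu2, a gatekeeper of the pore, rose by 1.16 ± 0.22. Of 24 genes of calcineurin and calmodulin-dependent signalling 3 were higher and 10 lower, with a median of -0.46. The calcineurin gene ppp3cca changed by -1.53 ± 0.17, the muscle transcription factor gene mef2aa by -1.79 ± 0.22 and rcan3, which encodes a regulator of calcineurin, by 2.64 ± 0.43.

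Fast fibre genes fell, as the abundant parvalbumins did, and slow fibre genes rose. Of 25 fast fibre contractile genes tested 21 were lower and 1 higher in untrained_TG, with a median of -3.52. The fast troponin I gene tnni2a.4 was among them, at -5.92 ± 0.37. Of 16 slow fibre genes 12 were higher and 0 lower by edgeR, with a median of 2.17, 12 at an unadjusted p under 0.05 and examples in the slow troponin C gene tnnc1b (3.37 ± 0.20), myoglobin mb (3.54 ± 0.23) and the troponin T gene tnnt2d (3.26 ± 0.24). All 12 of the skeletal muscle markers were detected and 10 of them were lower, such as the fast troponin C gene tnnc2 (-4.25 ± 0.32) and the titin gene ttn.1 (-2.70 ± 0.22). In trained_WT against untrained_WT edgeR called no member of the calcium lists, of the fast fibre list or of any marker list. At an unadjusted p under 0.05 there were 1 of 16, 2 of 22, 2 of 10, 0 of 9 and 5 of 24 in the 5 calcium lists in the order given and 1 of 25 in the fast list, and DESeq2 called 1 gene of the store list, 1 of the calcineurin list and none of the other calcium lists or the fast list. For scale, the p of pvalb6 in this comparison, 0.0451 (edgeR, unadjusted), ranked 3538 among the 18947 genes tested, so such values were common. Of the marker lists, hair cells and germ cells had 2 genes each at an unadjusted p under 0.05 and the others 0, and DESeq2 called 1 hair cell marker lower. The slow list had 8 of 16 at an unadjusted p under 0.05, with a median log2 fold change of 0.39, where the median over all genes was -0.07. By edgeR 1 of 16 was higher (DESeq2 3 higher and 1 lower), the slow myosin gene smyhc1 (0.83 ± 0.21, edgeR adjusted p = 0.03), with the slow troponin I gene tnni1c next at 0.92 ± 0.26 (edgeR adjusted p = 0.0553).

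Markers of other cells were also measured. Neuron markers summed to 4.43 to 12.2 CPM in untrained_WT, 4.94 to 9.15 in trained_WT and 16.2 to 32.7 in untrained_TG. Most of the higher sum was syt1a, which went from 3.71 to 21.6 CPM on average. In untrained_TG 2 of 10 tested were higher, syt1a (2.54 ± 0.27) and gap43 (1.94 ± 0.47), but the list had a median log2 fold change of -0.46, with elavl4 at -1.86 ± 1.01 and sv2a at -1.18 ± 0.84, neither of which passed. The pan-neuronal gene elavl3 had a median of 0 CPM in each group. Of olfactory neuron markers 0 of 3 were higher and 2 lower (gnal by -1.16 ± 0.33 and cnga4 by -2.54 ± 0.81), and the defining gene ompb was at 0 in every library. Of cardiac markers 0 of 2 were called by edgeR, with vmhc at -1.21 ± 0.51 and an unadjusted p under 0.05, and DESeq2 called 1 lower. The natriuretic peptide gene nppa was at 0 in every library. The atrial light chain gene myl7 and the natriuretic peptide gene nppb were at 0 in every transgenic library and averaged at most 0.00576 CPM in a wild-type group. In the same list myh6 was at 0.414 ± 0.281 CPM in untrained_WT and 0.52 ± 0.881 in untrained_TG. The gene cmlc1 was at 0 in wild-type libraries and at most 0.0545 CPM in untrained_TG. Of red blood cell markers 0 of 5 gene IDs were called by edgeR or DESeq2, and 0 had an unadjusted p under 0.05. The part of such cells in the parvalbumin values was not tested.

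The authors' deposited table for untrained_TG against untrained_WT gives log2 fold changes of -8.15 for pvalb1, -7.01 for pvalb2, -8.23 for pvalb3, -3.64 for pvalb4, -1.59 for pvalb6 and 0.83 for pvalb7. The falls are smaller there than in the edgeR fit, and the value of pvalb7 differs by less than its standard error. DESeq2 as run here gave -9.36, -8.76 and -9.48 for pvalb1, pvalb2 and pvalb3, so the deposited values differ from both fits. Why they differ was not tested. Each of these 6 has an adjusted p of at most 0.0144 in the authors' deposited table, and pvalb5, pvalb8 and pvalb9 have at least 0.122. The authors' deposited table for trained_WT against untrained_WT gives an adjusted p for 8 of the 9 members, and pvalb6 has the lowest at 0.194.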

How the data were processed

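The authors deposited raw read counts per Ensembl gene. The submitters' processing notes list build GRCz10 and the tools STAR (2.4.0i), HTSeq (0.9.1) and DESeq2; an annotation release and strand setting were not given there. Entries that name no gene held 14.98 to 18.57% of reads and were left out of library sizes. The authors also deposited tables with log2 fold changes and their standard errors, and p-values with adjusted p-values, which gave gene symbols and the values credited to them. Their 42 columns of normalised values were not used. Genes were tested on the counts with the edgeR 4.0.16 quasi-likelihood test in R 4.3.3 (TMM scaling, filterByExpr, all 21 libraries, group as the only term, Benjamini-Hochberg over 18947 genes, calls at 0.05). The fit was also run on simulated counts with planted changes balanced between rises and falls. These held no broad shift between groups like that of the data, so that run does not check the scaling used here. Intervals are 95% from the fit's t distribution. Libraries of 1 group differed beyond sampling noise in every pair (chi-square at least 82.4 times its degrees of freedom).

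Members, 15 lists and tests were chosen with earlier results of these data known. The lists cover calcium genes, fibre genes and markers of muscle, neurons, Purkinje cells, hair cells, olfactory neurons, heart, germ cells and blood. Named genes were all members, the 3 genes outside the family nearest in profile to each of the 3 most-counted members, and the 3 lowest p-values of a list, with fewer named in some marker lists. Alternatives were DESeq2 1.42.0, RLE scaling, library totals, no mitochondrially encoded genes, no filter, fewer libraries and a replicate block. The tests were planned for 24 libraries and run on 21. Gene order came from RefSeq's GRCz12tu annotation, and no sequences were used.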

Additional observations from a re-analysis of the deposited data

Results flagged for a closer look

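In 30 sets of 7 libraries (9 genes and the family's share in 3 groups), 8 held 1 library whose gap to its neighbour was more than 0.568 of the set's range. That cut-off gives about 1 in 20 only for independent sets of normally distributed values. The sets here hold related genes in the same libraries, so the 8 cannot be set against that rate. Untrained_TG replicate 7 stood apart in pvalb1 (10.9 CPM, others 1.35 to 4.63), pvalb2 (31.9, others 1.80 to 8.55) and pvalb3 (51.6, others 4.66 to 12.3). Trained_WT replicate 5 stood apart in pvalb1 (7980 CPM, others 1551 to 3508) and pvalb2 (7840, others 2380 to 4218). Trained_WT replicate 2 stood apart in pvalb7 (777 CPM, others 381 to 458). Untrained_TG replicate 2 stood apart in pvalb9 (25.9 CPM, others 1.53 to 10.1) and in pvalb5 (0.0905 CPM from 6 counts, others 0 to 0.0172).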

How the results depend on the processing

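The falls of pvalb1, pvalb2, pvalb3 and pvalb4 in untrained_TG kept their direction and call in all 23 alternatives against untrained_WT and all 21 against trained_WT. Against untrained_WT their log2 fold changes ranged from -9.97 to -9.14, -9.80 to -8.61, -10.35 to -9.34 and -4.14 to -3.59. The number of members lower against untrained_WT was 4 to 6 over the alternatives, 6 with library totals only. The number higher was 0 with library totals only and 0 without untrained_WT replicates 3, 5 and 7 together. Against trained_WT it was 1 without mitochondrially encoded genes and 0 to 1 over libraries left out in turn. In the trained comparison the number called was 0 in every alternative, and small values changed sign: with library totals only, pvalb2 was -0.0633 and pvalb4 -0.0094; without untrained_WT replicates 3, 5 and 7, pvalb4 was -0.0217, pvalb6 0.18 and pvalb9 0.65, and pvalb9 was 0.28 in untrained_TG. With libraries left out in turn pvalb2 ran from -0.0751 to 0.40 and pvalb3 from -0.17 to 0.0791. Against trained_WT pvalb8 was -0.0751 with library totals only and ran from -0.0812 to 0.32 over libraries left out. The cause was not tested. Same-numbered libraries correlated at -0.33 to 0.41 over 18 pairs, over 0.1 in 5, and 2 correlated best with their own number. The main fit did not pair samples by number, though such correlations cannot exclude a pairing. With the replicate block the members lower numbered 4 against untrained_WT, with pvalb6 at -1.57 (edgeR adjusted p = 0.103). Over all genes the trained comparison had 559 calls, 1267 by DESeq2, 1128 with library totals only 369 with the replicate block, 335 without untrained_WT replicate 3, 287 without trained_WT replicate 5, 262 without untrained_WT replicates 3 and 7 and 356 without 3, 5 and 7. The family's share by other denominators was 3.35% (all reads) in untrained_WT, 3.26% (all reads) and 4.36% (no mitochondrially encoded genes) in trained_WT and 0.339% (no mitochondrially encoded genes) in untrained_TG. Depth limits pvalb5 and pvalb8, and transcript lengths were not used, so levels were not compared between genes per length.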
